A study of Rattus norvegicus with 9 samples.

Results

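The 8 genes described here, Herc1, Herc2, Mycbp2, Birc6, Huwe1, Usp9x, Usp34 and Ubr4, encode very large proteins that attach ubiquitin to other proteins or take it off. They were taken by symbol from the deposited table of 30446 genes, in which each symbol had 1 identifier, and all 8 were among the 16627 genes that passed the low-count filter. The 8 were selected on measured values as well as on size: the set was put together knowing that several of them were lower in SCI than in naive libraries. The tissue was the dorsal root ganglion (DRG), which holds the cell bodies of sensory neurons with their glia, and the animals were Sprague-Dawley rats, all male. The ganglia of both sides, T12 to L6, were assayed, and every sample carries the label of 30 days after injury, the naive ones included. The 3 groups held 3 libraries each: rats with a spinal cord injury (SCI), rats with a sham operation, and naive rats. No allele, transgene or drug is named for any group. The labels do not say whether a library came from 1 animal or several, so the p-values reflect how far these libraries differ from each other, which may be technical.

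Ubiquitin is a small protein that is activated by an E1 enzyme, passed to an E2 conjugating enzyme and joined to a target by an E3 ligase, which chooses the target. Chains of ubiquitin send many proteins to the proteasome, and deubiquitinases cut the chains off again. In sensory neurons this system is known for setting how long axon survival factors last and for shaping axon growth and degeneration. Herc1, Herc2 and Huwe1 are ligases with a HECT domain, Mycbp2 is a RING ligase, and Ubr4 recognises destabilising N-terminal residues. Birc6 carries both a conjugating domain and the BIR domain of inhibitor of apoptosis proteins. Usp9x and Usp34 are deubiquitinases.

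The upstream sequences of 4 of the genes are shown because stretches of letters recur among them. RefSeq (build GRCr8) gave a start site for 7 of the 8 genes, and the 250 bases before it are printed 5′ to 3′ in the direction of the gene. Capitals mark the GC box GGGCGG, the NRF1 core GCGCATGC and the CGCG element, a palindrome seen as the second run of capitals in Herc1, each on either strand.
Birc6, chr6:26668276-26668525, minus strand: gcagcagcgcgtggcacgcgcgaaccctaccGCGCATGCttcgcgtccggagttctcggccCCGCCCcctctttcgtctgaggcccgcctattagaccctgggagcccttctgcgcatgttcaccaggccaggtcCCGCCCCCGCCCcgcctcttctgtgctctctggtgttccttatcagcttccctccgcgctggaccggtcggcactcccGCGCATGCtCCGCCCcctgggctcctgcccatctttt
Huwe1, chrX:24352967-24353216, plus strand: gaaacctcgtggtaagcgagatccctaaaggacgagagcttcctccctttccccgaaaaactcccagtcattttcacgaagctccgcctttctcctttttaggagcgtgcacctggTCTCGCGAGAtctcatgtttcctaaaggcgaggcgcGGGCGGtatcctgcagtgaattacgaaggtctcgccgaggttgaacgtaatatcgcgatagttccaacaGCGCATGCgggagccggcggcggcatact
Herc1, chr8:75796107-75796356, plus strand: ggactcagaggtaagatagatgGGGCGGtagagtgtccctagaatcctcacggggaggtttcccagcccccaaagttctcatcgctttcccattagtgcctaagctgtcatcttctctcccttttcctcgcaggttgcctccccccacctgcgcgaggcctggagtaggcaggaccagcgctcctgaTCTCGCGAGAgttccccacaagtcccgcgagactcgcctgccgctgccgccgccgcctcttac
Ubr4, chr5:156918835-156919084, plus strand: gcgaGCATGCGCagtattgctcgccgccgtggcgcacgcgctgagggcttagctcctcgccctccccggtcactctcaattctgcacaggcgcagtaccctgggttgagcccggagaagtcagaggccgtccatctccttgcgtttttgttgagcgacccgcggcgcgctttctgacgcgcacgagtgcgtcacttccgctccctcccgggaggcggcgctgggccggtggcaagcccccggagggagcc
The GC box occurred in 6 of the 7 windows (all but Ubr4) and in 53% of the windows of tested genes. The NRF1 core, part of the site read by the factor NRF1, occurred in Birc6, Huwe1 and Ubr4 and in 3.98% of the windows of tested genes. The CGCG element occurred in Herc1 and Huwe1 and in 0.686% of those windows. These last motifs were picked after the sequences were read, so that their counts are a description. The CRE TGACGTCA, the E-box CACGTG, the CCAAT box CCAAT, the ETS site CCGGAAG and the TATA box TATAAA were in none of the 7 windows. In the windows of tested genes they occurred in 2.51%, 7.36%, 34%, 12.1% and 7.43%, in that order. Among all 33469 windows of the table the GC box occurred in 30.5%, the NRF1 core in 2.2%, the CGCG element in 0.341%, the CRE in 1.59%, the E-box in 5.59%, the CCAAT box in 34%, the ETS site in 7.27% and the TATA box in 12.9%. No marked stretch of one motif overlapped another in the 7 windows. GC content ran from 55.2% in Huwe1 to 80.4% in Usp34, against a median of 59.2% over tested genes.

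Library totals ran from 16724878 to 32060538 counts. Sums over marker genes are given as unscaled CPM, the usual rate of counts relative to the library total. Of 17 sensory neuron markers 16 were found, all with counts in every library, and they summed to 30100 to 30500 CPM in SCI, 26600 to 38600 in sham and 28100 to 29400 in naive libraries. The naive libraries lay apart from the others in glia, skeletal muscle and macrophage markers. The 10 Schwann cell markers summed to 21000 to 25500 CPM in SCI, 19000 to 24300 in sham and 31300 to 33500 in naive libraries, and the 8 satellite glia markers to 8420 to 9400 CPM in SCI, 7590 to 10500 in sham and 4740 to 4990 in naive libraries. The 14 skeletal muscle markers found of 16, all with counts in every library, summed to 264 to 297 CPM in SCI, 357 to 382 in sham and 175 to 218 in naive libraries. Macrophage markers (10 found) summed to 529 to 562 CPM in SCI, 425 to 620 in sham and 315 to 399 in naive libraries. Red blood cell markers (4 found) summed to 377 to 777 CPM in SCI, 311 to 484 in sham and 625 to 866 in naive libraries. Fat markers (5 found) summed to 28.2 to 32.1 CPM in SCI, 16.8 to 40.1 in sham and 13.8 to 24.1 in naive libraries. Spinal cord markers (10 found, 6 with counts in every library) were low, at 5.93 to 9.35 CPM in SCI, 5.99 to 6.22 in sham and 8.64 to 9.40 in naive libraries. No marker found was at 0 in all libraries. The part of these differences in the levels below was not tested. In whole ganglia, fewer cells of a type and less RNA per cell cannot be told apart.

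**Figure D1:**
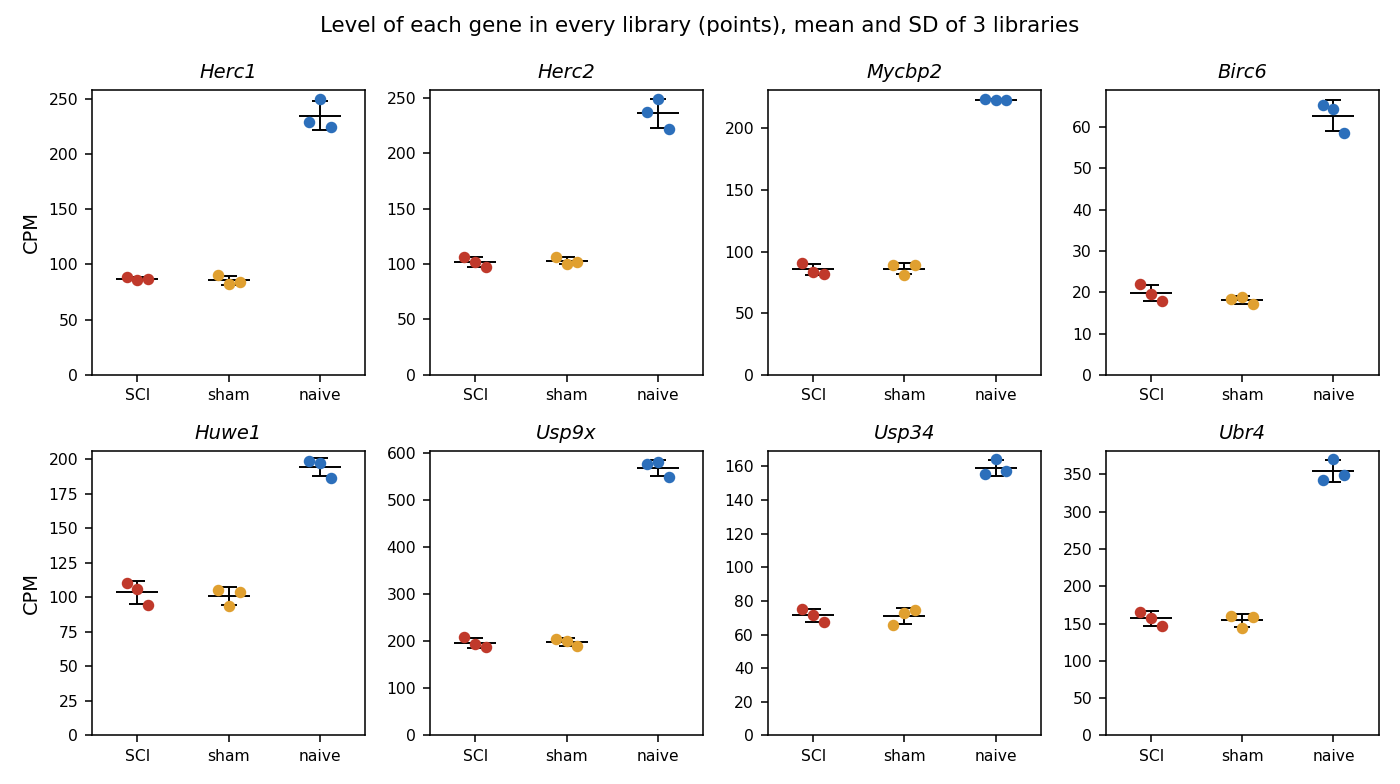
CPM of each of the 8 genes (vertical axis, from 0) in the SCI, sham and naive libraries. Points are libraries, the bar is the mean and the whiskers the SD of 3 libraries; in every panel the SCI and sham points overlap and lie below all naive points.

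Each of the 8 genes had overlapping levels in SCI and sham libraries, and both lay far below its level in naive libraries. Levels are given as CPM with library sizes scaled by TMM, and are compared only within a gene, since transcript lengths were not used here. Herc1, a HECT ligase linked in mice to the survival of Purkinje neurons, stood at 88.7, 86.2 and 86.4 CPM in SCI libraries 1 to 3, at 90.4, 82.6 and 83.9 CPM in sham libraries 1 to 3, and at 229, 249.5 and 225 CPM in naive libraries 1 to 3. Herc2, a relative of Herc1 that binds the ligase Ube3a and acts in DNA repair, stood at 107, 101.7 and 97.1 CPM in SCI, 106.5, 100.4 and 102.2 CPM in sham, and 238, 249 and 222 CPM in naive libraries. Huwe1, a HECT ligase for regulators of cell death and proliferation, stood at 110.1, 106 and 94.5 CPM in SCI, 105, 93.3 and 104 CPM in sham, and 198, 197.5 and 186 CPM in naive libraries. For each of these 3 ligases the lowest naive library lay above every other library, while the SCI and sham libraries overlapped.

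Mycbp2, also called Phr1, is the ligase known for limiting axon survival in mice by marking Nmnat2 for destruction. It stood at 90.7, 83.8 and 82.1 CPM in SCI, 89.0, 80.7 and 88.7 CPM in sham, and 224, 223 and 223 CPM in naive libraries. Ubr4, which binds calmodulin in neurons, stood at 166, 158 and 147 CPM in SCI, 160.4, 144 and 159 CPM in sham, and 342.5, 371 and 349.7 CPM in naive libraries. Birc6, the least counted of the 8, stood at 21.95, 19.5 and 17.9 CPM in SCI, 18.3, 18.9 and 17.2 CPM in sham, and 65.3, 64.4 and 58.4 CPM in naive libraries. Its libraries held 394 to 710 counts in SCI, 318 to 497 in sham and 1804 to 2045 in naive. The naive libraries of Mycbp2 were closer to each other than those of any other of the 8 genes, with an SD of 0.443 CPM.

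Usp9x, a deubiquitinase needed for axon growth of cultured mouse neurons, stood at 208, 194 and 187.5 CPM in SCI, 204, 201 and 189 CPM in sham, and 576, 579.9 and 549 CPM in naive libraries. Usp34, a deubiquitinase of the Wnt pathway protein axin, stood at 75.1, 71.5 and 67.45 CPM in SCI, 65.4, 72.6 and 74.75 CPM in sham, and 156, 164.5 and 157 CPM in naive libraries. As with the ligases, SCI and sham overlapped and naive stood apart. Added up, the raw counts of the 8 genes came to 826 ± 48.3 CPM (unscaled) in SCI, 810.0 ± 10.5 in sham and 2040 ± 52.2 in naive libraries (SD, n = 3 each).

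The comparison of SCI with sham asks what the cord injury adds to the operation. The naive libraries enter it only through the shared filter, scaling and estimate of spread. Its SCI libraries, however, were part of the comparison known when the 8 genes were chosen, so it is not independent of that choice. None of the 8 genes passed in SCI against sham. The SCI and sham libraries overlapped for all 8, as they did for most genes: 6.41% of genes tested had groups that did not overlap. The quasi-likelihood test of edgeR called 0 of 8 at an adjusted p under 0.05, with an adjusted p of 1.0 for each, against 0% of all genes tested. None of the 8 had an unadjusted p under 0.05, which 526 of 16627 genes (3.16%) had. A fit to the SCI and sham libraries alone called 0 genes, with 330 at an unadjusted p under 0.05. DESeq2 called 8 genes and limma-voom 0, none of them among the 8 described here.

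The size of the SCI over sham difference was bounded most tightly for Herc2, Herc1 and Mycbp2. The fold change was 0.988 for Herc2 (95% interval 0.895 to 1.09), 1.02 for Herc1 (0.922 to 1.12) and 0.993 for Mycbp2 (0.901 to 1.09). It was 0.993 for Usp9x (0.898 to 1.10), 1.01 for Usp34 (0.909 to 1.12), 1.02 for Ubr4 (0.913 to 1.13) and 1.03 for Huwe1 (0.919 to 1.15). Birc6 had the widest interval, with 19.8 ± 2.03 CPM in SCI and 18.1 ± 0.889 CPM in sham (SD, n = 3 each; fold change 1.10, 95% interval 0.962 to 1.25). On the log2 scale the 8 changes had a median of 0.016, and over all genes tested the median was -0.001. For 7 of the 8 the sign turned when some 1 library was left out, and for Birc6 it did not (0.048 to 0.2). In simulated counts the test found 21.3% of genes changed 1.25-fold and 63.3% of genes changed 1.5-fold between SCI and sham. The changed genes were drawn at random from genes of all levels, so these rates are not those of the 8 genes.

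**Figure D2:**
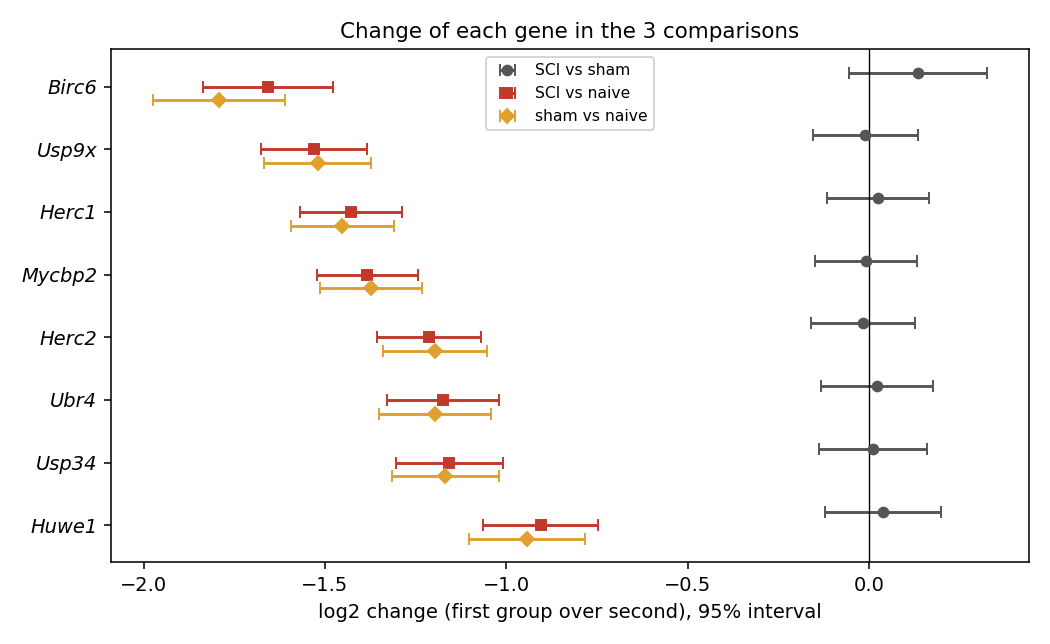
Log2 change of each of the 8 genes (horizontal axis) with its 95% interval, for SCI over sham, SCI over naive and sham over naive. All 8 intervals for SCI over sham include 0, and the changes from naive run from -1.79 to -0.90. The intervals against naive are a description, since the genes were chosen with SCI against naive known.

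Against naive, the values are given as a description without a test, because the genes were chosen with the comparison of SCI with naive known. Sham against naive uses the same naive libraries and is given the same way. Birc6 had the lowest level relative to naive, with SCI at 31.6% and sham at 28.9% of the naive mean (log2 change -1.66, SE 0.083, for SCI and -1.79, SE 0.085, for sham). Usp9x followed with SCI at 34.6% and sham at 34.9% (log2 change -1.53, SE 0.068, for SCI and -1.52, SE 0.068, for sham). Herc1 stood at 37.1% in SCI and 36.5% in sham, and Mycbp2 at 38.3% in SCI and 38.6% in sham. Then came Herc2 at 43.1% in SCI and 43.6% in sham, Ubr4 at 44.3% in SCI and 43.6% in sham, and Usp34 at 44.8% in SCI and 44.5% in sham. Huwe1 kept most, with 53.4% in SCI and 52.0% in sham (log2 change -0.90, SE 0.073, for SCI and -0.94, SE 0.074, for sham).

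All 8 genes were below every naive library in all 3 SCI libraries, as were 31.9% of genes tested, and in all 3 sham libraries, as were 29.2%. Of genes tested, 24.6% were called lower in SCI than in naive ganglia and 23.9% higher, and 25.9% were called lower in sham and 24.7% higher. In the ranking of all 16627 genes from the lowest log2 change of SCI over naive upward, Birc6 was number 123 and Huwe1 number 774. The labels name no batch, and all naive libraries stand on one side, so injury or surgery and a batch that holds the naive libraries alone cannot be told apart.

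The 8 genes did not all change by the same factor, which can be read within a library without any scaling. The ratio of 1 gene to another did not overlap between SCI and naive libraries for 23 of 28 pairs, and between sham and naive for 21. It overlapped in both comparisons for Herc1 with Mycbp2 and with Usp9x, and for Herc2, Usp34 and Ubr4 with each other. Pairs of other genes were not computed. The ratios below are to Huwe1, which changed least. Relative to Huwe1 counts in the same library, Usp9x had 189, 183 and 198.5 counts per 100 in SCI, 193.5, 216 and 182 in sham, and 290.3, 294 and 294.5 in naive libraries. The 2 X-linked genes thus stood in another ratio in each operated library than in any naive one, and this ratio was steady among the naive libraries. Birc6 had 19.9, 18.4 and 19.0 counts per 100 of Huwe1 in SCI, 17.3, 20.3 and 16.5 in sham, and 32.9, 32.6 and 31.4 in naive libraries. Mycbp2 had 82.4, 78.9 and 86.9 in SCI, 84.5, 86.5 and 85.3 in sham, and 112.8, 112.9 and 119.5 in naive libraries. Usp34, the gene nearest to Huwe1 in its change, had 68.2, 67.3 and 71.4 in SCI, 62.1, 77.8 and 71.9 in sham, and 78.5, 83.3 and 84.4 in naive libraries, and here sham 2 came close to naive 1.

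**Figure D3:**
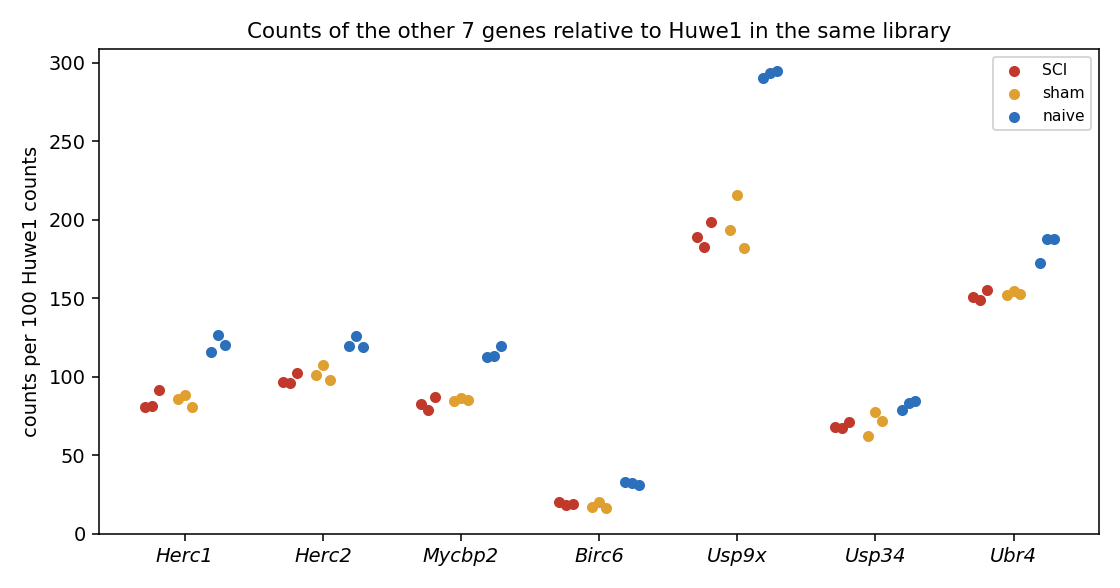
Counts of the other 7 genes per 100 Huwe1 counts of the same library (vertical axis, from 0), for SCI, sham and naive libraries. Each point is a library; Usp9x lies at 182 to 216 in SCI and sham libraries and at 290 to 295 in naive libraries.

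Within groups the 8 genes tended to move together, a pattern that the choice of the genes did not use. Whether other sets of genes do so as much was not tested. Deviations are the log2 CPM of a library minus the mean of its group. All 8 genes were above the SCI mean in SCI 1, with a mean deviation of 0.083, and all 8 were below it in SCI 3, with -0.081. In naive 3 all 8 were below the mean of their group as well (mean deviation -0.049). Sham libraries were less uniform: 7 of the 8 were above the mean in sham 1, where Usp34 had -0.115, and Usp34 was the highest of the 8 in sham 3 with 0.078.

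Over the 28 pairs of the 8 genes, the correlation of these deviations over 9 libraries had a median of 0.506 and was positive for 27 pairs. It was highest for Birc6 with Usp9x (0.947) and lowest for Herc1 with Usp34 (-0.144). The points share library depth and the scaling of each library, and each group's 3 deviations sum to 0. Correlations between pairs of other genes were not computed, so these values have no background beside them. The median deviation over all genes tested ran from -0.006 to 0.011. A list of other very large proteins had median deviations of 0.076 in SCI 1 and -0.080 in SCI 3, but -0.071 in sham 1 and 0.079 in sham 3. In sham 1 and sham 3 Usp34 thus went with that list, and the mean of the 8 genes (0.029 in sham 1 and 0.004 in sham 3) did not. In sham 3 Mycbp2 (0.044), Huwe1 (0.046) and Ubr4 (0.042) were above the mean too. Sham 2 was otherwise: the list had -0.025, the mean of the 8 genes -0.033 and Usp34 0.036.

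**Figure D4:**
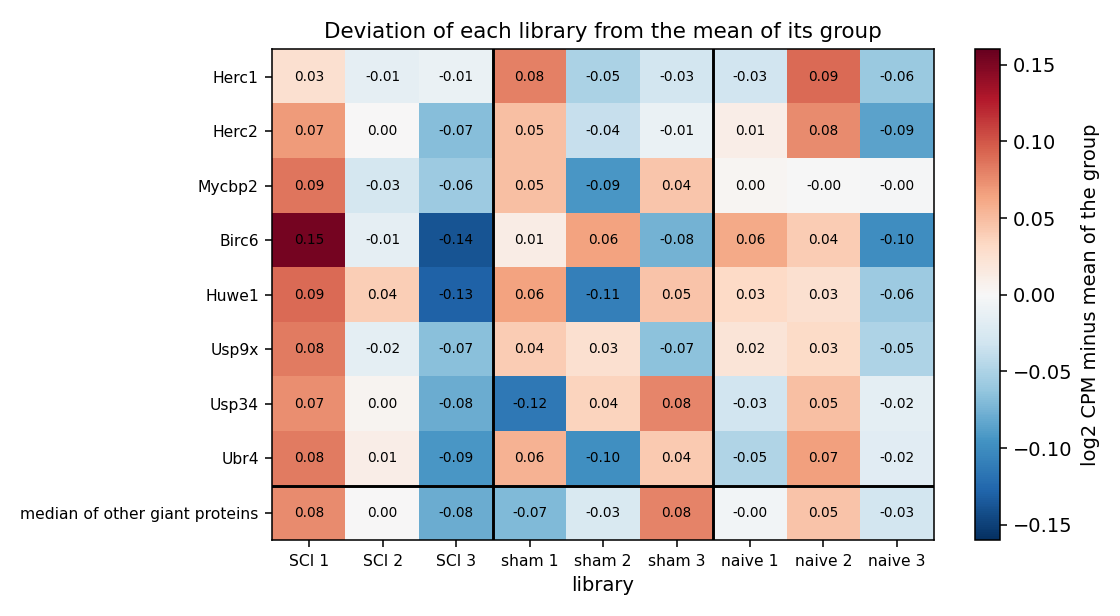
Deviation of each library from the mean of its group (log2 CPM, colour and number) for the 8 genes (rows) and for the median of the other giant proteins (last row), in SCI, sham and naive libraries (columns). The column of SCI 1 is positive throughout and that of SCI 3 negative throughout.

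The rest of the ubiquitin system was followed with lists of 234 further genes found in the table, of which 228 were tested. Against naive, 96 of 228 were called lower in SCI and 42 higher (42.1% and 18.4%, beside 24.6% and 23.9% of all genes tested). The median log2 change of the 228 was -0.14, against -1.30 for the 8 genes and 0.011 for all genes tested. For sham against naive the counts were 98 lower and 45 higher (43.0% and 19.7%, beside 25.9% and 24.7%). Between SCI and sham 0 of 228 were called. Of the 228, 12 had a log2 change of SCI over naive as low as that of Huwe1, a share close to the 775 of all 16627 genes tested. Besides Usp9y, which was not called, they included Hectd4, Uba6, Usp45, Usp50, G2e3, Ubr1, Ubr3, Vcpip1, Rnf213 and March6. They were singled out by their values, and Hectd4 and Rnf213 are themselves known as very large ligases.

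**Figure D5:**
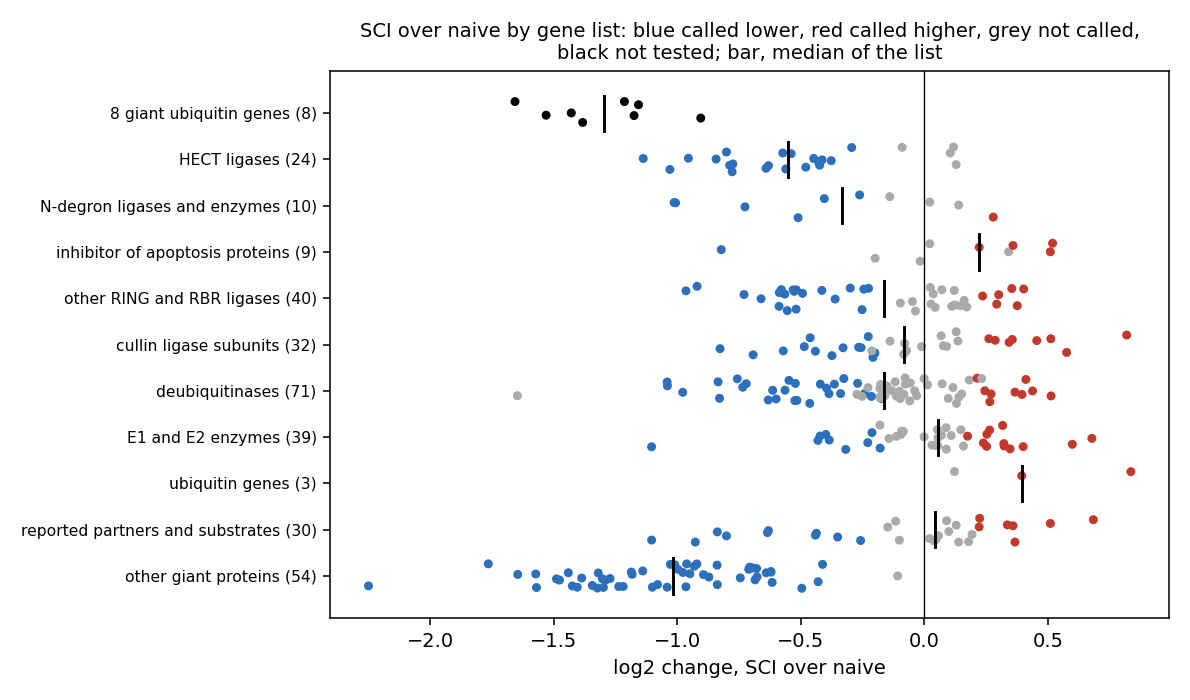
Log2 change of SCI over naive (horizontal axis) for the 8 genes and for each gene list (rows, number of genes tested in brackets). Blue points were called lower, red higher and grey not called; black points are the 8 genes, which were not tested; the bar is the median, which is -0.55 for HECT ligases and -1.02 for other giant proteins.

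Of 24 other HECT ligases, 20 (83.3%) were called lower in SCI than in naive ganglia and 0 higher. The count was the same for sham, and the median log2 change was -0.55 in both comparisons. Among all genes tested, 24.6% were called lower and 23.9% higher in SCI, and 25.9% and 24.7% in sham. Hectd4 averaged 67.9 ± 7.01 CPM in SCI, 66.4 ± 7.92 CPM in sham and 150.0 ± 4.54 CPM in naive ganglia (log2 change -1.14, SE 0.090, for SCI and -1.17, SE 0.090, for sham, with edgeR adjusted p = 1.20e-06 and 8.07e-07). The 4 that were not called, Hectd3, Ube3b, Wwp2 and Arel1, had log2 changes of 0.11, 0.13, 0.12 and -0.09 in SCI.

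Among 10 UBR box proteins and enzymes of the N-degron pathway, in which Ubr4 acts, 6 were called lower and 1 higher in SCI than in naive ganglia. These are 60% and 10%, beside 24.6% and 23.9% of all genes tested. In sham 6 were lower and 2 higher (60% and 20%, beside 25.9% and 24.7%). The ligases Ubr1 and Ubr3 averaged 19.1 ± 2.40 and 71.1 ± 5.87 CPM in SCI, 19.2 ± 1.0 and 70.5 ± 10.8 CPM in sham, and 38.7 ± 0.493 and 143 ± 5.43 CPM in naive ganglia (edgeR adjusted p = 1.98e-06 and 5.34e-06 for SCI against naive). Ate1, which attaches arginine to the ends of proteins, had a log2 change of -0.73 in SCI and passed. Ntan1, an amidase of N-terminal asparagine, passed in the other direction, with 47.3 ± 3.26 CPM in SCI, 51.6 ± 3.96 CPM in sham and 38.9 ± 0.632 CPM in naive ganglia (edgeR adjusted p = 0.00703 for SCI and 0.000522 for sham). Kcmf1, a partner of Ubr4, was called higher in sham (log2 change 0.22, edgeR adjusted p = 0.00856, or 0.0533 without naive 2) and not in SCI (0.14).

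The list around Birc6, of other BIR proteins, caspases and their antagonists, had 1 of 9 genes called lower and 4 higher in SCI than in naive ganglia. These are 11.1% and 44.4%, beside 24.6% and 23.9% of all genes tested. In sham 1 was lower and 3 higher (11.1% and 33.3%, beside 25.9% and 24.7%). Xiap, the best known caspase inhibitor, averaged 13.2 ± 2.70 CPM in SCI, 13.2 ± 4.11 CPM in sham and 23.7 ± 0.545 CPM in naive ganglia (edgeR adjusted p = 0.00174 for SCI and 0.00137 for sham). Diablo, a mitochondrial antagonist of these inhibitors, averaged 160.0 ± 7.45 CPM in SCI, 171 ± 9.42 CPM in sham and 112 ± 6.69 CPM in naive ganglia (edgeR adjusted p = 6.52e-05 for SCI and 1.34e-05 for sham). Htra2, a mitochondrial protease, had log2 changes of 0.36 and 0.34 in SCI and sham, and both passed. The other calls in SCI were Casp9 and Birc3. Birc3 lost its call when any 1 of the 6 SCI and naive libraries was left out (edgeR adjusted p = 0.0578 to 0.0961), and only 2 genes were called higher when naive 1, naive 3, SCI 2 or SCI 3 was left out. Uba6, the E1 enzyme known to charge Birc6, averaged 41.5 ± 3.12 CPM in SCI, 40.8 ± 4.75 CPM in sham and 89.5 ± 3.44 CPM in naive ganglia (log2 change SCI over naive -1.10, SE 0.085, edgeR adjusted p = 1.09e-06).

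Of 40 single-chain RING and RBR ligases, 20 were called lower and 6 higher in SCI than in naive ganglia, and 19 lower and 7 higher in sham. Rnf213, a very large ligase, averaged 20.6 ± 0.835 CPM in SCI, 18.6 ± 0.604 CPM in sham and 40.3 ± 2.30 CPM in naive ganglia (edgeR adjusted p = 8.61e-07 for SCI against naive). Arih1 had a log2 change of -0.57 and Znrf2 of -0.55 in SCI. Called higher in SCI were, among others, Rnf40, a histone ligase, at 0.40, Rnf10 at 0.35 and Rnf5, a ligase of the endoplasmic reticulum, at 0.38.

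Of 32 cullin ligase subunits and regulators, 13 were called lower and 8 higher in SCI than in naive ganglia, with the same counts in sham. Among all genes tested, 24.6% were called lower and 23.9% higher in SCI, and 25.9% and 24.7% in sham. The 8 called higher were a share near that of all genes tested and are no result about this list. Among those called higher was the elongin B gene, listed as Tceb2, at 106 ± 6.64 CPM in SCI, 111 ± 8.24 CPM in sham and 59.9 ± 4.02 CPM in naive ganglia, with Rbx1 and Nedd8 at log2 changes of 0.51 and 0.58 in SCI. Cand1, a large exchange factor of these ligases, was called lower, with 115 ± 5.43 CPM in SCI, 113 ± 13.1 CPM in sham and 204 ± 9.09 CPM in naive ganglia. Fbxo45 and Skp1, the subunits that join Mycbp2 in 1 complex, did not pass against naive (log2 changes 0.13 and 0.09 in SCI, edgeR adjusted p = 0.399 and 0.355). Nmnat2, the axon survival enzyme that this complex marks, averaged 55.0 ± 2.74 CPM in SCI, 53.2 ± 10.4 CPM in sham and 42.7 ± 0.649 CPM in naive ganglia (log2 change SCI over naive 0.37, SE 0.109, edgeR adjusted p = 0.0132, or 0.0561 without SCI 1). These 3 partners were named after their values were seen.

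Of 71 other deubiquitinases, 27 were called lower and 9 higher in SCI than in naive ganglia, and 31 lower and 8 higher in sham. Usp24, another very large deubiquitinase, averaged 35.4 ± 2.14 CPM in SCI, 35.3 ± 3.21 CPM in sham and 62.9 ± 2.18 CPM in naive ganglia (log2 change SCI over naive -0.83, SE 0.076, edgeR adjusted p = 3.31e-06). Usp33 and Usp45 had log2 changes of -0.76 and -1.04 in SCI. Uchl1, the abundant neuronal deubiquitinase, was called higher, with 2950 ± 210 CPM in SCI, 3160 ± 321 CPM in sham and 2220 ± 36.1 CPM in naive ganglia (edgeR adjusted p = 0.00245 for SCI and 0.000478 for sham). Josd2 and Otub1 were called higher as well, with log2 changes of 0.51 and 0.44 in SCI.

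Activating and conjugating enzymes had 9 of 39 called lower and 12 higher in SCI (23.1% and 30.8%, beside 24.6% and 23.9% of all genes tested). In sham 8 were lower and 14 higher (20.5% and 35.9%, beside 25.9% and 24.7%). The conjugating enzymes Cdc34, Ube2r2 and Ube2s had log2 changes of 0.68, 0.40 and 0.35 in SCI, and Ube2g1 and Ube2d2 of -0.42 and -0.40. Of the 3 ubiquitin genes tested, 2 were called higher in SCI and 3 in sham, with none lower. Among all genes tested, 23.9% were called higher in SCI and 24.7% in sham. Rps27a, which encodes ubiquitin fused to a ribosomal protein, was called in SCI at an edgeR adjusted p of 0.0498 and lost that call when any 1 of the 6 SCI and naive libraries was left out (adjusted p = 0.0836 to 0.137). In sham it was called at an edgeR adjusted p of 0.0439, with groups that overlapped. Sham libraries 1 to 3 had 165.2, 236.1 and 308.2 CPM, and naive libraries 1 to 3 had 183.5, 181.7 and 170.5 CPM.

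Of 30 genes tested whose proteins are reported to bind one of the 8 or to be its substrate, 10 were called lower and 7 higher in SCI than in naive ganglia (33.3% and 23.3%, beside 24.6% and 23.9% of all genes tested). In sham 10 were lower and 8 higher (33.3% and 26.7%, beside 25.9% and 24.7%). These shares are near those of all genes and are no result about the partners. Dcx, the microtubule protein doublecortin, averaged 5.74 ± 0.223 CPM in SCI, 5.66 ± 0.411 CPM in sham and 11 ± 0.223 CPM in naive ganglia (edgeR adjusted p = 1.19e-05 for SCI against naive). Ank3, ankyrin-G of the axon initial segment and itself a very large protein, had a log2 change of -0.84. Epn1, an endocytic adaptor, had 208 ± 6.73 CPM in SCI, 216 ± 16.1 CPM in sham and 130.0 ± 1.24 CPM in naive ganglia and was called higher in both.

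Genes of very large proteins outside the ubiquitin system also lay below their naive level. In a list of them, 53 symbols were found with 54 identifiers, and 53 of the 54 were called lower in SCI than in naive ganglia (98.1%, where 24.6% of genes tested were called lower). Its median log2 change was -1.02 in SCI and -1.09 in sham, against -1.30 and -1.28 for the 8 genes. The change of 35 of the 54 (64.8%) was as low as that of Huwe1, and that of 2 was as low as that of Birc6. Dmxl2, a protein of synaptic vesicles, averaged 76.5 ± 2.27 CPM in SCI, 77.5 ± 6.02 CPM in sham and 215 ± 10.6 CPM in naive ganglia (edgeR adjusted p = 2.60e-08 for SCI and 2.44e-08 for sham). Igf2r, a receptor that carries lysosomal enzymes, had a log2 change of -1.18 in SCI. Spen, which was singled out after its value was seen, was the one not called in SCI, with 47.5 ± 2.44 CPM in SCI, 43.5 ± 6.44 CPM in sham and 51.2 ± 1.87 CPM in naive ganglia. That list too was written with earlier results known, and whether transcript length, RNA quality or library preparation moved with it was not tested.

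Between SCI and sham no gene of any of these lists passed in edgeR. The smallest p values in the lists belonged to Ryr1, the calcium release channel of skeletal muscle, with 1.87 ± 0.227 CPM in SCI and 2.63 ± 0.178 CPM in sham (log2 change -0.50, SE 0.169, edgeR adjusted p = 1.0), and to Igf2r (0.12, SE 0.059) and Rnf213 (0.15, SE 0.075). The summed skeletal muscle markers were also lower in SCI than in sham libraries, with the ranges given above (264 to 297 in SCI and 357 to 382 in sham), and their part in it was not tested. Usp7 had a log2 change of 0.12 (SE 0.061), Rbx1 of -0.11 (SE 0.056) and Fbxw7 of 0.13 (SE 0.072). Other list members with the smallest p were Hecw2 at 0.20, Hace1 at -0.09, Ntan1 at -0.13, Fbxo11 at 0.09, Birc3 at 0.33, Diablo at -0.10, Traf6 at 0.26, Usp4 at -0.10, Nae1 at -0.12, Ube2ql1 at -0.13 and Kcmf1 at -0.08.

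The genes whose pattern was most like the mean of the 8 were sought among 9561 genes with a mean of at least 10 CPM. Over 9 libraries the 5 most alike included Mtor (Pearson's r 0.998), Snrnp200 (0.998) and Htt (0.997), and the 8 genes themselves had 0.994 to 0.999. Here and below, each of the 8 is part of the mean it is compared with, which favours a higher r for them. The naive libraries set this likeness, and 16.7% of the genes had an r over 0.9. Mtor, the growth kinase, averaged 58.2 CPM in SCI, 57.7 CPM in sham and 94.3 CPM in naive ganglia, and Htt, huntingtin, 63.9 CPM in SCI, 62.1 CPM in sham and 126 CPM in naive ganglia. Over the 6 SCI and sham libraries alone they were Snx27 (0.989), 1700021K19Rik (0.984), Foxred1 (0.976), Iqsec1 (0.974) and Trio (0.960), with 0.314% of the genes over 0.9, and the 8 genes had 0.376 to 0.903. The genes of this second set lay near their naive level more than the 8 did: Snx27 averaged 107 CPM in SCI, 106 CPM in sham and 130.0 CPM in naive ganglia. Libraries share depth and scaling, and no gene named occurs in both sets.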

How the data were processed

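Per the labels' protocols, an RNeasy Mini Kit gave the total RNA, and the TruSeq RNA Sample Prep Kit V2 the paired-end libraries. That kit does not mark strand, so reads of a gene and of an overlapping antisense gene could not be separated. FastQC, Trimmomatic, TopHat2, HTSeq and DESeq2 are named in the submitters' processing notes. Their versions, the build and the gene models were not given in the sources used here. Raw counts per gene were deposited by the authors, as whole numbers with no normalization. Library totals ran from 16724878 to 32060538 counts, and Birc6, the least counted of the 8 genes, had 318 to 2045 counts per library.

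Genes were tested by quasi-likelihood in edgeR 4.0.16 (R 4.3.3) after its default filter on low counts and TMM scaling. A single model took the 9 libraries and left 6 residual degrees of freedom. P-values were adjusted over 16627 genes by Benjamini and Hochberg's method, and a gene was called at an adjusted p under 0.05. Standard errors and 95% intervals come from that fit. Alternatives used DESeq2 (version 1.42.0), limma-voom (version 3.58.1) and other settings. On simulated counts for SCI against sham (16312 genes tested, 3 runs) the test found 21.3%, 63.3%, 86% and 96% of genes changed 1.25-, 1.5-, 2- and 4-fold, with 7.67 false calls per run. Every pair of libraries of a group differed beyond counting noise (chi-square per degree of freedom 3.01 to 39.1).

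The members and lists were chosen with earlier results of these data known. Genes named from each list were up to 3 per direction with the smallest p among called genes with groups that do not overlap, and for SCI against sham the 2 with the smallest p. Older symbols on the lists were looked up in RefSeq's gene names (assembly GRCr8), and those that did not match were not analysed here. A planned description of change by protein length was not made, since no protein lengths were at hand. The labels give all groups the same replicate numbers, without saying that they mark shared animals or days. Coordinates of printed sequences are those of GRCr8 and no count was placed on them. Some genes that the naming rule picks are not reported here.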

Additional observations from a re-analysis of the deposited data

How the results depend on the processing

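The number of genes called between SCI and sham, 0 in edgeR, was 11 without a low-count filter, 8 with DESeq2 and 0 to 22 with 1 library left out, where the 22 came without sham 3. With RLE or upper-quartile scaling, a strict filter, limma-voom, only the 2 groups compared, equal depth or an adjusted p under 0.1 it was 0. None of the 8 genes was called between SCI and sham under any of these alternatives. The sign of their changes was not fixed: with 1 library left out, log2 changes ran from -0.003 to 0.064 for Herc1, -0.052 to 0.016 for Herc2, -0.056 to 0.018 for Mycbp2, -0.016 to 0.099 for Huwe1, -0.054 to 0.022 for Usp9x, -0.047 to 0.049 for Usp34 and -0.026 to 0.067 for Ubr4. At equal depth Herc1 had -0.011 and Usp34 -0.039. The cause of these turns was not tested.

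Against naive, the 8 log2 changes kept their sign under all alternatives and moved little (Birc6 from -1.74 to -1.59 in SCI and Huwe1 from -0.95 to -0.84). The genes were chosen with SCI against naive known, and the alternatives refit the same libraries. The kept signs are therefore a description and no support for the changes. With the replicate block the counts of genes called were 0 for SCI against sham, 7848 for SCI against naive and 8153 for sham against naive, against 0, 8059 and 8407 without it. Deviations of same-numbered libraries correlated between -0.0946 and 0.124, so the numbers were not taken to pair libraries. Alternatives for change by protein length were not run. Birc6 had 318 to 710 counts in SCI and sham libraries, and its CPM varied by 10.2% (CV) in SCI.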

Other observations

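Usp9y, the Y-linked relative of Usp9x, held 12, 0 and 0 counts in SCI libraries 1 to 3, 2, 2 and 40 counts in sham libraries 1 to 3, and 36, 0 and 9 counts in naive libraries 1 to 3, although all rats were labelled male. Usp9x held 3930 to 6730 counts in SCI, 3385 to 5547 in sham and 15911 to 18418 in naive libraries. Reads of near-identical stretches of both genes could be counted under either gene or under neither, and this was not tested.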
